A study of Mus musculus with 22 samples.

Results

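The BCL2 family of apoptosis regulators was followed through 22 RNA-seq libraries of mouse duodenal organoids exposed to cold atmospheric plasma (CAP). The 10 members were taken by gene name: the pro-survival genes Bcl2, Bcl2l1 and Mcl1, the effector gene Bak1, the BH3-only genes Bcl2l11, Bad, Bid, Bik and Bmf, and Bcl2l15. They are 10 of the 52636 genes measured in every library. In the organoids kept for 24 h with CAP-treated medium, Bcl2 fell and Bcl2l1 rose, while Mcl1, the member with the highest level per exon length, changed by little. The difference of Bcl2 from untreated organoids ranged from -0.55 on the log2 scale, which did not pass the test, to -2.61. Among the 10 members, the changes of Bak1 and of BH3-only genes that passed were at most 0.55 on the log2 scale in either direction.

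All organoids were grown from duodenal crypts of wild-type CD1 mice aged 2 months, with 1 organoid line per mouse, and all were of normal epithelium. CD1 is an outbred stock, so the lines also differ in genotype. The untreated group held 4 libraries, from lines 1, 2, 3 and 4, and each treated group held 3 libraries, from lines 1, 2 and 4. CAP came from a helium jet built for endoscopy, at 50 W for 60 s. In the direct groups the jet was applied to the organoids themselves, and the medium was replaced after 30 min (direct 30 min) or after 24 h (direct 24 h). In the indirect groups untouched organoids received medium from another organoid culture that had been treated with CAP. In the plasma-activated medium (PAM) groups they received medium treated in the absence of organoids. Both were given from day 1 (indirect day 1, PAM day 1) or from day 2 after replating (indirect day 2, PAM day 2), for 24 h. The labels instead name 30 min for the day 1 groups and 24 h for the day 2 groups. With collection at day 3, direct 24 h and the day 1 groups had a further day in fresh medium. Direct 30 min had a longer time in it and the day 2 groups had none. By the labels, lines 1, 2 and 4 were at passage 12, 14 and 4, so that the passage cannot be told apart from the line.

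Apoptosis through mitochondria is decided by the balance within this family. BAK1 and its relative BAX open the outer mitochondrial membrane and release cytochrome c, which activates caspases. The products of Bcl2, Bcl2l1 (BCL-XL) and Mcl1 hold these effectors and the BH3-only proteins in check, and the BH3-only proteins BIM (Bcl2l11), BAD, BID, BIK and BMF relay stress signals by binding the pro-survival proteins or the effectors. In the intestinal crypt, stem cells and their dividing progeny die readily after damage, and BCL2 is known to be found near the crypt base. Most BH3-only proteins are also controlled by phosphorylation, cleavage or turnover, which RNA levels do not show.

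The results turn on Bcl2 and Bcl2l1, which moved in opposite directions, and the letters before their start sites are shown for that reason. The sequences are those of RefSeq on GRCm38, 250 bases upstream of a start site, and 9 of the 10 members had an entry. Bcl2 lies on chromosome 1 from 106538178 to 106714274 on the minus strand, and Bcl2l1 on chromosome 2 from 152780668 to 152831728 on the minus strand. The window of Bcl2 is chr1:106714291-106714540 and that of the outermost listed start of Bcl2l1 is chr2:152831729-152831978, both on the minus strand, and neither overlapped an annotated exon. Each is written 5′ to 3′, and capitals mark matches to a GC box (GGGCGG) or to the core of a cyclic AMP response element (TGACG) on either strand.
Bcl2: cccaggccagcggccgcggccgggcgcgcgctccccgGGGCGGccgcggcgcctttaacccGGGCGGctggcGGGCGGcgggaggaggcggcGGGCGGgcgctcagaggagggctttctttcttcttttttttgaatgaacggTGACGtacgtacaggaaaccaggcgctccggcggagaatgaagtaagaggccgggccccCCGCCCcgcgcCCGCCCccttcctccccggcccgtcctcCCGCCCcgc
Bcl2l1: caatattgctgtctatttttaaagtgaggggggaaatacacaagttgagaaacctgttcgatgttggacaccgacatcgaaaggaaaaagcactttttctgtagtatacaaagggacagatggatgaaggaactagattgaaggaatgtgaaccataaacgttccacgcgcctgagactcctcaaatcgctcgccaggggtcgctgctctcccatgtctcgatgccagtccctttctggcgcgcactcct

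The Bcl2 window held 7 GC boxes and 1 TGACG, with 74.8% G and C. The Bcl2l1 window held none of the 5 motifs searched, with 47.6% G and C, against a median of 52.4% over all windows. Among 32851 windows of the same length, 32.7% held a GC box and 17.8% held TGACG. The other motifs searched on both strands were CCAAT (33.8% of windows), TGANTCA (6.75%) and TTCNNNGAA (7.02%), and none of these was in either window. Bcl2l1 has further listed starts inside the gene, and which start was used in these organoids was not measured. Among the other members, a GC box was found upstream of Mcl1, Bcl2l11, Bad and Bid and not of Bak1, Bmf or Bcl2l15. A match of letters is a description and not a bound site, and a link to the direction of change was not tested.

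Values are read counts scaled to 20 M per library. In the low values 1 read was worth the same in short and in long genes, so they were read here as not divided by gene length. From the spacing of these values, the reads behind each library were estimated at 19.37 to 28.68 M, with 1 read worth 1.03 to 0.697 units. Changes were tested on log2(value + 1) with limma's moderated test, adjusted by Benjamini-Hochberg over all genes tested. A gene is said to have risen or fallen where the adjusted p was under 0.05. A stricter rule, called the study threshold here, also asked for an adjusted p under 0.01 and for a change of 1 or more on the log2 scale in either direction. All 10 members passed the filter on low values in each of the 14 comparisons made.

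The organoid label held up against markers fixed in a list. The summed value of 6 epithelial markers was at least 77655 in every library, and 5 fibroblast markers, among them Lum at 0 throughout, summed to 17 or less. Of 5 immune markers, Ptprc did not exceed 12, and the sum of that list (94 to 227) came mostly from Lyz2 and Cd68. PAM day 2 of line 4 stood furthest from its own group, with a mean correlation of 0.958 on the log2 scale against 0.966 to 0.982 for the other libraries.

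**Figure D1:**
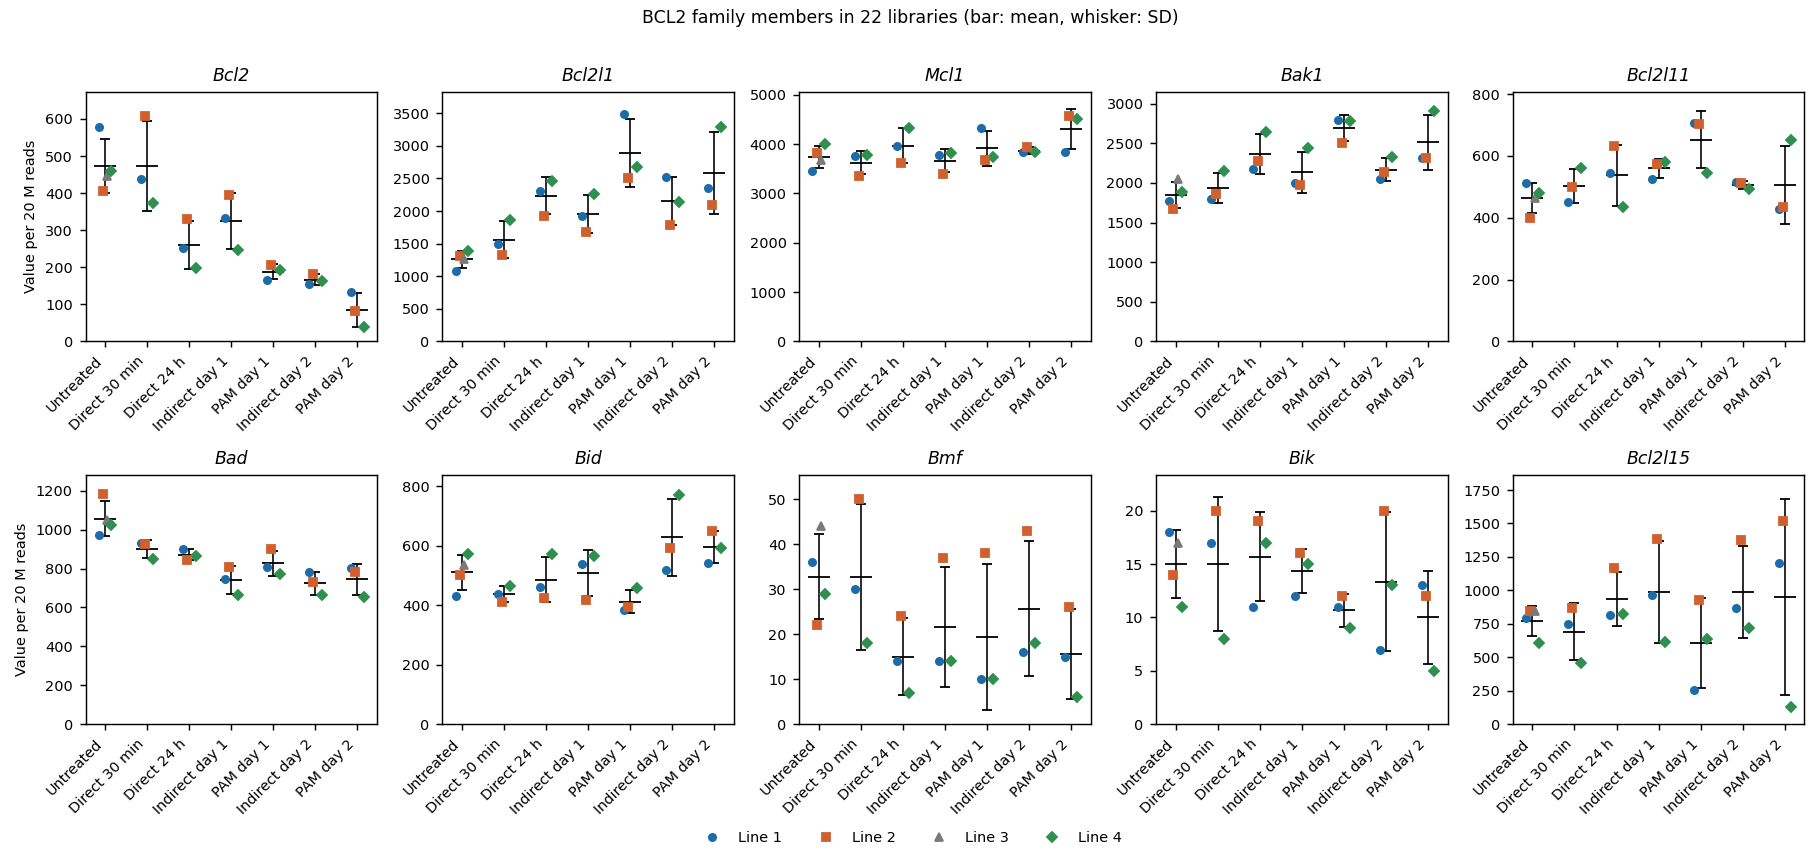
Value per 20 M reads (y axis, from 0) of each member in each library, by group (x axis), with 1 symbol per organoid line; the horizontal bar is the group mean and the whisker the SD (n = 4 untreated, n = 3 in the other groups). Bcl2 falls from 407 to 577 in untreated organoids to 40 to 132 in PAM day 2, Bcl2l1 lies at 1682 or more in the 24 h groups against at most 1381 in untreated, and line 2 is highest for Bmf and Bcl2l15 in each treated group.

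Levels can be compared between members only per exon length. In untreated organoids (n = 4), the mean value per kilobase of exon was 1094 for Mcl1, 766 for Bak1 and 413 for Bad, with ranges that did not overlap. Bcl2l15 (284, range 223 to 311) and Bcl2l1 (275, range 236 to 301) overlapped, and Bid followed at 144. Bcl2l11 at 57.8 and Bcl2 at 51.6 overlapped as well. Bik at 9.43 and Bmf at 6.23 were the lowest, and their ranges also overlapped. In PAM day 2 the level per kilobase of Bcl2 was 9.25 (range 4.37 to 14.4). This overlapped the untreated ranges of Bik (6.91 to 11.3) and Bmf (4.19 to 8.38) and reached above both. Bcl2l1 stood at 563 in the third place. These levels divide the deposited value by the union of annotated exons and rest on that value not being divided by length already. A gene that uses a shorter transcript would be understated.

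**Figure D2:**
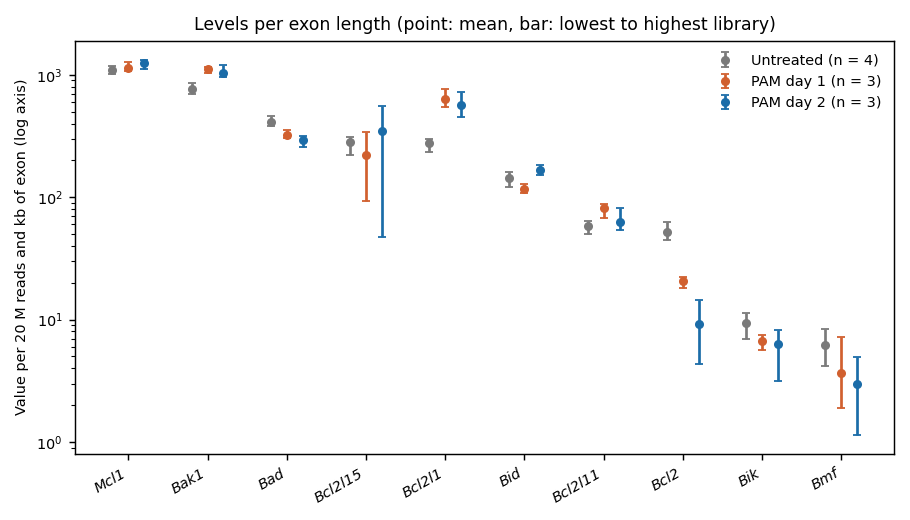
Value per 20 M reads and kilobase of exon (y axis, log scale) of the 10 members (x axis) in untreated, PAM day 1 and PAM day 2 organoids; points are group means and bars run from the lowest to the highest library. Mcl1 is highest in all 3 groups (1094 in untreated, 1260 in PAM day 2), and Bcl2 drops from 51.6 to 9.25.

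The first comparison set the 9 libraries with 24 h of exposure from day 1 (direct 24 h, indirect day 1 and PAM day 1) against the 4 untreated libraries. Of the 10 members, Bcl2l1 and Bak1 rose and Bcl2 and Bad fell, where 33.5% of all 18490 genes tested changed either way (14.8% higher, 18.7% lower). None passed the study threshold, which 6.34% of genes passed. By unadjusted p under 0.05 there were 6 members, beside 8154 of the 18490 genes tested. The median log2 fold change was -0.06 over the members and -0.05 over all genes tested, so as a list the members did not stand away from the rest. The 9 treated libraries come from 3 lines, and their p-values treat them as separate samples.

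Bcl2 codes for the founding pro-survival protein of the family. In untreated organoids its value was 577, 407, 447 and 459 in lines 1, 2, 3 and 4. In direct 24 h it was 251, 329 and 199 in lines 1, 2 and 4, in indirect day 1 it was 332, 396 and 246, and in PAM day 1 it was 166, 205 and 192. All 9 of these libraries lay below the lowest untreated library, although line 2 of indirect day 1 did so by only 11. Such a separation downward was seen for 10.5% of genes. The mean was 257 ± 78.2 (SD, n = 9) against 473 ± 73.13 (SD, n = 4), and the log2 fold change was -0.92 (SE 0.21, 95% interval -1.36 to -0.48, adjusted p = 0.00452). In these bulk samples, fewer cells of a type and less RNA per cell cannot be told apart.

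By single group, Bcl2 fell in direct 24 h by 0.88 on the log2 scale (SE 0.19, adjusted p = 0.0176) and in PAM day 1 by 1.32 (SE 0.14, adjusted p = 0.00037). In indirect day 1 the difference was -0.55 (SE 0.18) and did not pass (adjusted p = 0.059), with all 3 libraries below untreated, as for 17.7% of genes. Within each route, the day 2 group, which had no day in fresh medium, read lower than the day 1 group. The tests between these groups are given further below. Indirect day 2 read 155, 183 and 163 in lines 1, 2 and 4, a fall of 1.49 (SE 0.14, adjusted p = 0.000134), and PAM day 2 read 132, 82 and 40, a fall of 2.61 (SE 0.36, adjusted p = 0.000962). The last 2 falls and that in PAM day 1 passed the study threshold. In direct 30 min the values 438, 607 and 374 straddled the untreated ones (log2 fold change -0.02, 95% interval -0.43 to 0.40, adjusted p = 0.968). The fall in direct 24 h was lost without line 1 of that group (adjusted p = 0.0536).

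Stem cell, proliferation and Paneth cell markers were lower in the same groups as Bcl2, though not every gene of these lists fell in each group. The other lists were mixed. The crypt-base stem cell list of Lgr5, Olfm4, Ascl2, Smoc2, Axin2 and Tnfrsf19 summed to 32650 to 39141 in untreated organoids and 20369 to 32307 in direct 30 min, where none of its genes passed and Bcl2 straddled the untreated values. It summed to 5366 to 10987 in direct 24 h, 6001 to 15180 in indirect day 1 and 1381 to 2683 in PAM day 1, then 2754 to 4024 in indirect day 2 and 771 to 2815 in PAM day 2. All 6 genes fell in the comparison of 9 with 4 libraries, where 18.7% of all genes fell and 14.8% rose. The proliferation list (Mki67, Top2a, Pcna, Ccnb1, Mcm2) ranged from 19624 to 25847 in untreated organoids and from 3932 to 7796 in PAM day 2, and 4 of its 5 genes fell in the comparison of 9 with 4. Of 5 Paneth cell genes 3 fell in that comparison. Their sum was 29289 to 40556 in untreated organoids, 14758 to 33219 in direct 30 min and 4797 to 21111 in PAM day 2. Of 6 goblet cell genes 1 rose over the 9 libraries and 4 fell in PAM day 2, where 47.6% of all genes changed either way. Their sum was 77863 to 135755 in untreated organoids and 17779 to 47794 in PAM day 2. Of 8 enterocyte genes 2 rose and 0 fell over the 9 libraries, and 2 rose and 2 fell in PAM day 2. Their sum was 107193 to 128029 in untreated organoids and 143640 to 196513 in PAM day 2. Over the 9 libraries 1 of 5 enteroendocrine genes fell and 1 of 3 tested tuft cell genes rose. The part of these cells in the fall of Bcl2 was not tested.

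Bcl2l1 codes for BCL-XL, another pro-survival protein. Its untreated values were 1082, 1318, 1263 and 1381 in lines 1 to 4. It read 2312, 1918 and 2467 in lines 1, 2 and 4 of direct 24 h, 1926, 1682 and 2255 in indirect day 1, and 3494, 2514 and 2670 in PAM day 1. All 9 libraries lay above the highest untreated one, as they did upward for 7.16% of genes. The mean was 2360 ± 533 (SD, n = 9) against 1261 ± 129 (SD, n = 4), a log2 fold change of 0.88 (SE 0.15, 95% interval 0.55 to 1.20, adjusted p = 0.00107).

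The rise of Bcl2l1 was seen in each group kept for 24 h. Its log2 fold change was 0.82 in direct 24 h (SE 0.12, adjusted p = 0.00513), 0.63 in indirect day 1 (SE 0.12, adjusted p = 0.0133) and 1.19 in PAM day 1 (SE 0.13, adjusted p = 0.000403). In indirect day 2, with 2527, 1792 and 2133 in lines 1, 2 and 4, it was 0.76 (SE 0.13, adjusted p = 0.00223), and in PAM day 2, with 2359, 2089 and 3295, it was 1.01 (SE 0.16, adjusted p = 0.00193). Only the 2 PAM values passed the study threshold. That of PAM day 2 fell short of the minimum fold change when line 1 of the untreated group (0.94) or line 4 of PAM day 2 (0.82) was left out. In direct 30 min the values were 1488, 1323 and 1869, with a log2 fold change of 0.30 (SE 0.13) that did not pass (adjusted p = 0.206).

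Because the 2 genes moved apart, their ratio changed more than either. The Bcl2l1 value divided by the Bcl2 value in the same library was 1.88, 3.24, 2.83 and 3.01 in untreated lines 1 to 4. In direct 30 min it was 3.40, 2.18 and 5.00 in lines 1, 2 and 4, and in direct 24 h it was 9.21, 5.83 and 12.4. Both the indirect and the PAM groups lay above the untreated range. Indirect day 1 had 5.80, 4.25 and 9.17 and PAM day 1 had 21.05, 12.3 and 13.9. Indirect day 2 had 16.3, 9.79 and 13.1, and PAM day 2 had 17.9, 25.5 and 82.4. The last value rests on line 4 with its Bcl2 value of 40, and the group mean of 41.9 ± 35.3 (SD, n = 3) is held up by it. The ratio is of values not divided by length, and it was formed after both genes had been seen to move, so it was not tested.

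**Figure D3:**
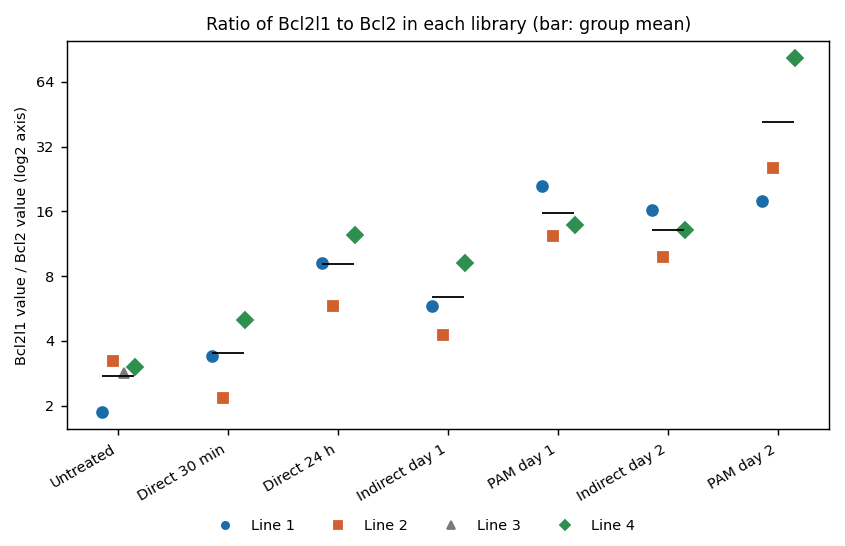
Ratio of the Bcl2l1 value to the Bcl2 value (y axis, log2 scale) in each library, by group (x axis), with 1 symbol per organoid line and a bar at the group mean. Untreated libraries sit between 1.88 and 3.24, and the libraries of the groups exposed for 24 h between 4.25 and 82.4.

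Mcl1, which codes for a short-lived pro-survival protein, showed no detectable change. Its untreated values were 3463, 3827, 3670 and 3999 in lines 1 to 4. Over the 9 libraries with 24 h of exposure from day 1 it ranged from 3396 to 4330 with a median of 3783. The log2 fold change was 0.04 (SE 0.07, 95% interval -0.12 to 0.20, adjusted p = 0.718), so a change of 0.2 or more in either direction lay at or beyond the interval. In PAM day 2 it read 3846, 4561 and 4517 in lines 1, 2 and 4, a log2 fold change of 0.20 (SE 0.10) that did not pass (adjusted p = 0.12). With libraries rescaled by their 75th percentile the same difference was 0.34 with an adjusted p of 0.026.

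Bak1 codes for a pore-forming effector. In untreated organoids it read 1769, 1668, 2053 and 1887 in lines 1 to 4. In lines 1, 2 and 4 it read 2178, 2271 and 2644 in direct 24 h, 1995, 1971 and 2436 in indirect day 1, and 2789, 2507 and 2777 in PAM day 1. The groups overlapped only through 2 libraries of indirect day 1, and 7 of the 9 treated libraries lay above all untreated ones. Over the 9 libraries its log2 fold change was 0.37 (SE 0.10, 95% interval 0.15 to 0.59, adjusted p = 0.0138), which was lost without line 2 of the untreated group (adjusted p = 0.0543).

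Taken by group, Bak1 rose in PAM day 1 (0.55, SE 0.09, adjusted p = 0.00219) and in PAM day 2 (0.44, SE 0.12, adjusted p = 0.0163), where it read 2315, 2309 and 2910. The rise in direct 24 h was marginal (0.36, SE 0.10, adjusted p = 0.0485). It was lost when any one library was left out (adjusted p 0.053 to 0.119) and with the organoid line as a block (adjusted p = 0.0526). In indirect day 1 (0.21, adjusted p = 0.178) and indirect day 2 (0.24, adjusted p = 0.0621) it did not pass. With the line as a block the latter did (0.29, adjusted p = 0.0347). In the annotation, 25.5% of its exon bases also belong to Ggnbp1 on the opposite strand, and the strand setting of the counting is not given in the sources used here, so reads there cannot be assigned with certainty.

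Bad codes for a BH3-only protein that binds the BCL2 and BCL-XL proteins and is controlled by phosphorylation. Its untreated values were 971, 1184, 1050 and 1024 in lines 1 to 4. In lines 1, 2 and 4 it read 903, 846 and 866 in direct 24 h, 749, 808 and 663 in indirect day 1, and 808, 900 and 772 in PAM day 1. All 9 lay below the lowest untreated value, as for 10.5% of genes, and the log2 fold change was -0.38 (SE 0.09, 95% interval -0.57 to -0.19, adjusted p = 0.00516). It fell in indirect day 1 by 0.52 (adjusted p = 0.0138), in indirect day 2 by 0.54 (adjusted p = 0.00249) and in PAM day 2 by 0.51 (adjusted p = 0.00811).

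In direct 30 min Bad read 929, 925 and 850, all below untreated as for 11.2% of genes, with a log2 fold change of -0.23 (SE 0.09). This was the lowest unadjusted p among the members in that comparison, at 0.0324 by limma, and it did not pass after adjustment (0.167). In direct 24 h the difference of -0.27 did not pass either (adjusted p = 0.0749). The fall in PAM day 1 (-0.35, adjusted p = 0.0193) was lost with quantile normalization (0.0863), with 75th percentile scaling (0.0658) and without line 4 of that group (0.0767). Of its exon bases, 20.5% are shared with Gpr137 on the opposite strand.

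Bcl2l11 codes for BIM, which binds all the main pro-survival proteins. It read 512, 399, 465 and 481 in untreated lines 1 to 4, and 708, 702 and 546 in lines 1, 2 and 4 of PAM day 1. PAM day 1 was the one group in which it rose (log2 fold change 0.48, SE 0.13, adjusted p = 0.0178). That call was lost without line 1 (0.0524) or line 2 (0.058) of the group. Over the 9 libraries it was 0.32 (SE 0.12, adjusted p = 0.0524), with 8 of 9 above all untreated libraries and line 4 of direct 24 h, at 435, the exception. This value lay near the limit: it passed with quantile normalization (0.0231), with 75th percentile scaling (0.0273) and with all groups in one fit (0.0417).

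Bid links death receptors to mitochondria once a caspase has cut it. It read 432, 503, 535 and 571 in untreated lines 1 to 4 and passed in no comparison with untreated organoids, with log2 fold changes from -0.30 in PAM day 1 (adjusted p = 0.0794) to 0.29 in indirect day 2 (adjusted p = 0.156). PAM day 1 read 385, 395 and 458 in lines 1, 2 and 4, and PAM day 2 read 543, 651 and 592. These 2 PAM groups did not overlap, as for 16.2% of genes in that direction (log2 fold change 0.53, SE 0.14, adjusted p = 0.0782). The difference in indirect day 2 passed with the line as a block (0.0493), and that in PAM day 2 passed with quantile normalization (0.0139). Bid shares 17.7% of its exon bases with Bcl2l13.

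Bmf and Bik, both BH3-only genes, were scarce. Bmf read 36, 22, 44 and 29 in untreated lines 1 to 4. In lines 1, 2 and 4 it read 14, 24 and 7 in direct 24 h, 14, 37 and 14 in indirect day 1, and 10, 38 and 10 in PAM day 1. The value of line 2 was higher than that of lines 1 and 4 in all 6 treated groups. Over the 9 libraries the log2 fold change was -0.94 (SE 0.40, 95% interval -1.80 to -0.08) and did not pass (adjusted p = 0.0842). It passed without line 2 of indirect day 1 (0.0372), without line 2 of PAM day 1 (0.0392) and with quantile normalization (0.0479). Bik lay between 5 and 20 in all 22 libraries, with a log2 fold change of -0.15 (SE 0.23, 95% interval -0.64 to 0.35), and at such values a change was hardly detectable at this depth.

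Bcl2l15 codes for a family member that is enriched in the digestive tract. It read 793, 845, 843 and 606 in untreated lines 1 to 4. In PAM day 1 it read 255, 927 and 635 in lines 1, 2 and 4, and in PAM day 2 it read 1205, 1522 and 128. The spread between lines was wider than any difference between groups, and line 2 was highest in all 6 treated groups. Over the 9 libraries the log2 fold change was 0.01 (SE 0.32, 95% interval -0.68 to 0.71, adjusted p = 0.979). For PAM day 2 it was -0.31 (SE 0.76), and without line 4 of that group it turned to 0.82 with an adjusted p of 0.00602. Its exons share 20.97% of their bases with Gm43064.

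Counts by single group follow, and all of these comparisons share the 4 untreated libraries. In direct 30 min no member passed, where 0.00564% of genes (1 of 17731) did. There was 1 member at an unadjusted p under 0.05 by limma, beside 4415 of the 17731 genes. No member passed with the line as a block or in a single fit of all 7 groups. In direct 24 h 3 members passed (Bcl2, Bcl2l1, Bak1) against 17.3% of all genes, and in indirect day 1 there were 2 (Bcl2l1, Bad) against 20.6%. PAM day 1 had 5 (Bcl2, Bcl2l1, Bak1, Bcl2l11, Bad) against 41.8%. Indirect day 2 had 3 (Bcl2, Bcl2l1, Bad) against 43.8%, or 5 against 41.4% with the line as a block, and PAM day 2 had 4 (Bcl2, Bcl2l1, Bad, Bak1) against 47.6%. At the study threshold the members numbered 0 in direct 24 h and indirect day 1 (2.17% and 1.31% of genes), 2 in PAM day 1 (10.2%), 1 in indirect day 2 (11.9%) and 2 in PAM day 2 (17.3%).

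**Figure D4:**
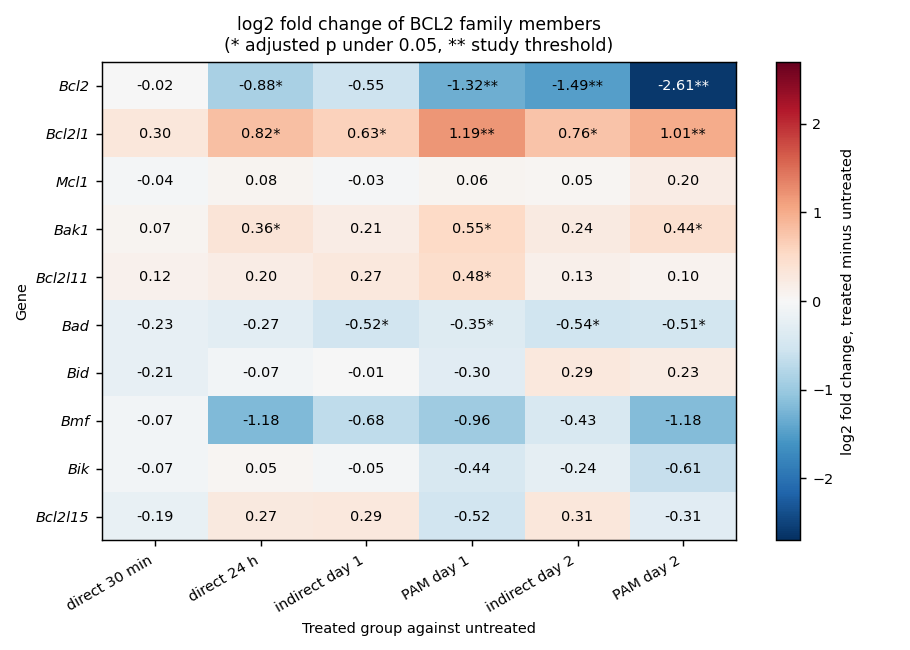
log2 fold change of each member (rows) in each treated group against untreated (columns), from -2.61 to 1.19; 1 asterisk marks an adjusted p under 0.05 and a double asterisk the study threshold. Bcl2 and Bcl2l1 hold all 5 double asterisks, and the direct 30 min column has no asterisk.

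Treated groups were compared with each other to see whether route and timing mattered for the members. In the 7 such comparisons no member passed with limma, where 0.258% of genes did in PAM day 1 against direct 24 h, 3.37% in indirect day 2 against indirect day 1 and 0% in the other 5. By unadjusted p under 0.05 the members numbered between 0 and 3, beside 1228 to 4651 of all genes tested. The count of 3 came in PAM day 1 against indirect day 1, beside 3820 of 17634 genes. The groups share lines 1, 2 and 4, and libraries of one line deviated together in every pair of treated groups (correlation 0.219 to 0.806, median 0.564 over 45 pairs). With the line as a block, members passed in 3 of the 7.

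Direct 24 h differed from direct 30 min in both of the opposed genes. Direct 30 min also had a longer time in fresh medium before collection, so the length of exposure cannot be told apart from that time. With the line as a block, Bcl2 was lower in direct 24 h than in direct 30 min (log2 fold change -0.86, SE 0.14, adjusted p = 0.0103) and Bcl2l1 was higher (0.52, SE 0.11, adjusted p = 0.0288), where 8.14% of genes passed. Without the block both had an adjusted p of 0.205. Within each of the 3 lines Bcl2 was lower and Bcl2l1 higher after 24 h, which are the differences that the blocked test used.

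PAM day 1 differed from indirect day 1 in 3 members. With the line as a block, Bcl2 was lower (-0.77, SE 0.15, adjusted p = 0.0263), and Bcl2l1 (0.56, SE 0.12, adjusted p = 0.0294) and Bak1 (0.34, SE 0.08, adjusted p = 0.0364) were higher in PAM, where 18% of genes passed. Without the block the adjusted p was 0.165, 0.165 and 0.175. Indirect day 2 differed from indirect day 1 in Bcl2 (-0.93, SE 0.13, adjusted p = 0.00113 with the block, 0.0504 without), where 23.6% of genes passed with the block.

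The other contrasts left wide intervals. Bcl2 in PAM day 2 against PAM day 1 differed by -1.29 (95% interval -2.27 to -0.31, adjusted p = 0.109, and 0.0824 with the block), and against indirect day 2 by -1.13 (95% interval -2.10 to -0.15, adjusted p = 0.523). In one fit of all 7 groups the former passed the study threshold (adjusted p = 0.00637). Between indirect day 1 and direct 24 h the interval for Bcl2 was -0.24 to 0.89 and that for Bcl2l1 was -0.54 to 0.15. Between PAM day 1 and direct 24 h they were -0.94 to 0.06 and -0.01 to 0.74.

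Differences between lines were a part of the members' variation. Over the 6 treated groups, Bcl2l1 was lowest in line 2 in all 6, by a median of 0.32 on the log2 scale below the mean of the other lines. Bcl2 was highest in line 2 in 5 of 6 groups, and Bak1 was highest in line 4 in 5 of 6. For Bmf line 2 exceeded the other lines by a median of 1.32, and for Bcl2l15 by 0.82. In untreated organoids the library labelled line 2 had the lowest Bcl2 and Bmf values. The one labelled line 1 had the highest Bcl2 (577) and the lowest Bcl2l1 (1082). The untreated libraries of lines 1 and 2 deviated less with treated libraries of their own line (median correlation 0.08 and 0.13) than with those of the other (0.54 and 0.35), so their line labels are in doubt and blocked comparisons with untreated rest on them. Whether the order of lines in untreated organoids was the same cannot be told for that reason.

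Across the 22 libraries, Bcl2l1 and Bak1 had the highest correlation among the member pairs (Pearson r = 0.89 on the log2 scale) and Bcl2 and Bcl2l1 the lowest (-0.80). These are descriptions over libraries that share lines, groups and scaling. Among 19370 genes, the 3 whose profile was most like that of Bcl2 were Gm17080, Slc29a1 and Scml4 (r = 0.99, 0.99 and 0.99 after rounding).

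A list of 59 other genes of apoptosis, in 6 classes, gave the setting of the members. Over the 9 libraries with 24 h of exposure from day 1, 53 could be tested, of which 8 rose and 14 fell, where 14.8% of all genes rose and 18.7% fell. In PAM day 2 it was 11 and 15, where 47.6% of all genes changed either way. In direct 30 min none of the 53 passed by limma. The median log2 fold change was -0.04 over the 9 libraries and -0.09 in PAM day 2, against -0.05 and -0.12 over all genes tested.

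Of 15 further BCL2 relatives 10 were tested, and 2 rose and 2 fell, where 14.8% of all genes rose and 18.7% fell. Bok, a pore-forming relative of BAK1 and BAX, had a mean of 1026 ± 322 (SD, n = 9) against 458 ± 64.9 (SD, n = 4). Its log2 fold change was 1.11 (SE 0.22, adjusted p = 0.00244), and 9 of 9 libraries lay above untreated, as for 7.16% of genes. Bax, the partner of Bak1 in opening the membrane, rose by 0.50 (SE 0.15, adjusted p = 0.0179), with 8 of 9 libraries above. Bcl2l2, which codes for the pro-survival protein BCL-W, differed by 0.05 (SE 0.08, adjusted p = 0.709). Pmaip1, the BH3-only gene NOXA, was at 820 ± 177 (SD, n = 9) against 651 ± 124 (SD, n = 4) and did not pass (0.32, adjusted p = 0.155). It rose in PAM day 2 by 1.55 (SE 0.29, adjusted p = 0.00341).

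Among 14 caspase and mitochondrial genes 4 fell and none rose, beside 18.7% and 14.8% of all genes. Casp6, an executioner caspase, fell by 0.70 (SE 0.18, adjusted p = 0.00804), and in PAM day 2 by 2.13 (SE 0.47, adjusted p = 0.00729). Aifm1, a mitochondrial flavoprotein, fell by 0.48 (SE 0.09, adjusted p = 0.00141) and by 1.05 in PAM day 2 (SE 0.14, adjusted p = 0.000925). Of 5 inhibitor of apoptosis genes only Birc5 (survivin), which is also expressed with the cell cycle, changed over the 9 libraries, falling by 0.63 (SE 0.17, adjusted p = 0.0106), and by 2.44 in PAM day 2 (SE 0.28, adjusted p = 0.000516). The proliferation list fell beside it, as given above, and the part of dividing cells was not tested.

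In the death receptor class 3 of 8 genes rose and 2 fell, where 14.8% of all genes rose and 18.7% fell. Tnfsf10, the ligand TRAIL, fell from 346 ± 150 (SD, n = 4) to 50.7 ± 36.5 (SD, n = 9). Its log2 fold change was -3.04 (SE 0.57, adjusted p = 0.00161), with 9 of 9 libraries below untreated, as for 10.5% of genes. Its mean in PAM day 2 was 3.33 ± 4.04 (SD, n = 3), so near 0 that the fitted log2 fold change of -6.62 depends on the pseudocount. Of 9 partners of the BCL2 proteins 2 rose and 3 fell, beside the same shares of all genes, and none passed the study threshold.

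Among transcription factors known to act on family genes, 7 of 8 were tested. Of these 1 rose and 2 fell, where 14.8% of all genes rose and 18.7% fell. Ddit3 (CHOP), a stress factor, rose from 220 ± 18.4 (SD, n = 4) to 662 ± 147 (SD, n = 9), by 1.55 (SE 0.16, adjusted p = 4.18e-05), and by 2.32 in PAM day 2 (SE 0.16, adjusted p = 0.000272). E2f1, a cell cycle factor, fell by 0.68 (SE 0.13, adjusted p = 0.00218) and by 2.54 in PAM day 2 (SE 0.33, adjusted p = 0.000751). Atf4 and Jun did not pass over the 9 libraries (0.16, adjusted p = 0.437, and -0.26, adjusted p = 0.136). Both rose in PAM day 2, by 1.52 (SE 0.17, adjusted p = 0.000475) and by 1.13 (SE 0.21, adjusted p = 0.00369).

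**Figure D5:**
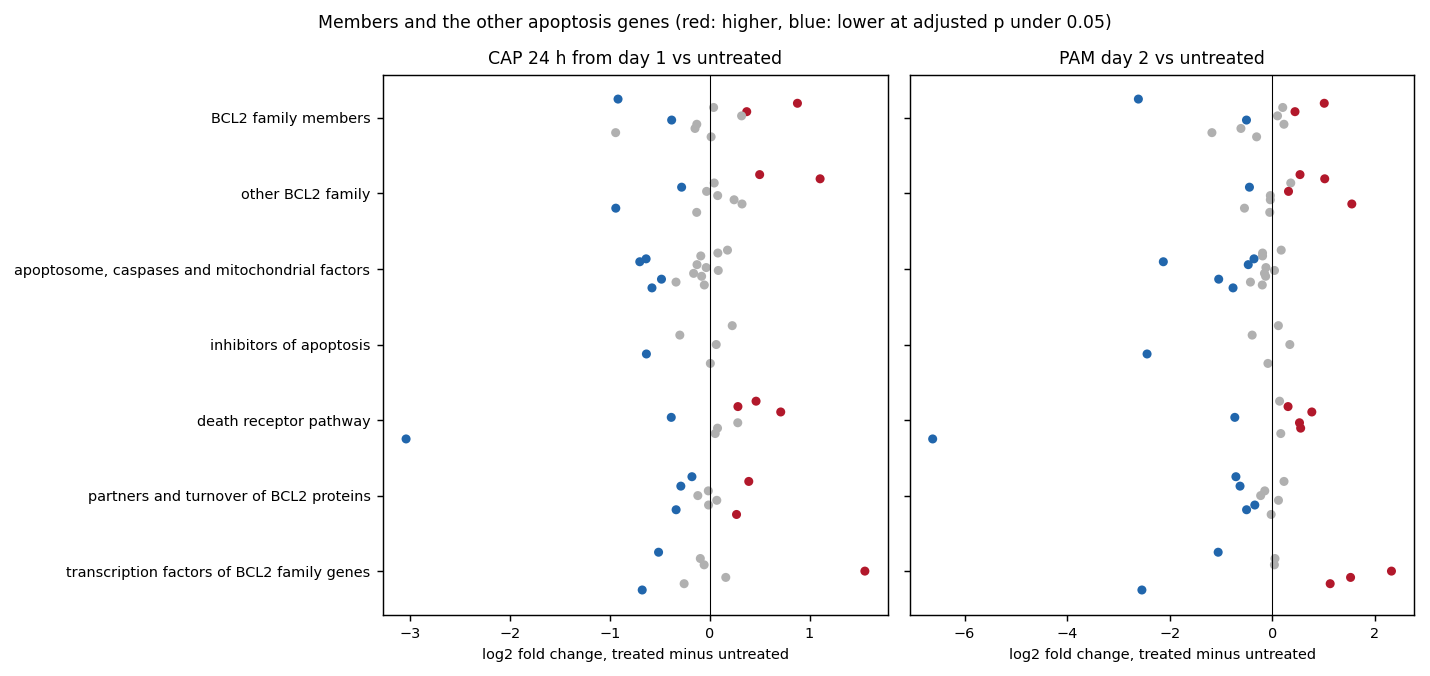
log2 fold change against untreated (x axis) of the 10 members and of the tested genes of 6 apoptosis classes (rows), for the 9 libraries with 24 h of exposure from day 1 (left) and for PAM day 2 (right, with a wider axis); each point is 1 gene, red where it rose, blue where it fell and grey where it did not pass. The lowest point is Tnfsf10 in both panels (-3.04 and -6.62), and the lowest member is Bcl2 in the right panel (-2.61).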

How the data were processed

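RNA-seq was performed by the authors on total RNA of organoids (Ovation SoLo kit, paired reads of 100 bases). Per the submitters' processing notes and the paper, reads were trimmed with Trimmomatic 0.36, aligned with STAR 2.5.3a to GRCm38.p4 and counted with HTSeq 0.9.1 on Ensembl annotation release 90, and differences were tested by the authors with edgeR. What the authors deposited is a score, named CP20M, for every gene in each library: counts scaled to 20 M and rounded up, giving whole numbers that summed to between 20007540 and 20016513. Captions in the paper describe the unit as divided by kilobase. The values did not show this. In one library, where 1 read was worth more than 1 unit, no gene had the value 1, and the value 2 was held by 1161 short genes (exons of at most 669 bases) and 805 long genes (at least 2495 bases). Raw counts were not used here, so no count test was run. Rounding up and scaling can hide small differences between genes near the filter limit.

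Values were taken as log2(value + 1) and tested with limma 3.58.1 in R 4.3.3 (trended moderated test, two-sided, groups compared only, Benjamini-Hochberg), keeping genes that reached 10 in 3 or more of the libraries fitted. The limma fits were tested on simulated data that held large changes and no differences between lines. Small changes and libraries that share a line were not covered. Depth was estimated from the spacing of low values, which recovered 11 of 12 simulated depths within 0.1% and the other, near 20 M, within 1.502%. The estimate from the long genes matched that from all genes within 0.5% in 22 of 22 libraries, and that from the short genes, where few values are high, in 13. Intervals are 95%. None of the 24 replicate pairs within groups held identical values. Gene positions are from GENCODE vM21, which held 99.6% of the deposited gene identifiers. Figures were drawn with matplotlib 3.10.9.

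Samples with the same replicate number are the same organoid line, from 1 mouse, and same-line libraries of treated groups correlated at 0.219 or more after group means were removed, so an alternative fit took the line as a replicate block. The passage of lines 3 and 4 is 4 by the labels and 2 in the line table of the paper. Where this changed a call, the value stands beside it. The other alternatives were quantile normalization, 75th percentile scaling, one fit of all 7 groups, no filter, a pseudocount of 10, and leaving out each library.

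Named genes are the 10 members, the relatives Bax, Bok and Bcl2l2, and, from the list of other apoptosis genes, up to 4 per class past the threshold of the study in the comparison of 9 with 4 libraries or in PAM day 2. Genes most like a member were the 3 with the highest correlation, and those for Bcl2l1 are not reported here. The members and lists were chosen with earlier results of these data known.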

Additional observations from a re-analysis of the deposited data

Results flagged for a closer look

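Differences between treated groups were singled out where the test of the difference itself passed at an adjusted p under 0.05 (limma, with the organoid line as a block). There were 6. Between direct 24 h and direct 30 min the differences were in Bcl2 (log2 fold change -0.86) and Bcl2l1 (0.52), where 8.14% of all genes passed. Both had the same sign in 3 of 3 lines. Between PAM day 1 and indirect day 1 they were Bcl2 (-0.77), Bcl2l1 (0.56) and Bak1 (0.34), with the same sign in 3 of 3 lines for each. Between indirect day 2 and indirect day 1 it was Bcl2 (-0.93), again in 3 of 3 lines, where 23.6% of all genes passed. Without the block none of the 6 passed. Each comparison has 3 lines. The signs come from the same differences as the blocked test and are not separate support. In the untreated group, line 1 stood above the others for Bcl2 (577 against 407 to 459). Line 4 stood below them for Bcl2l15 (606 against 793 to 845).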

How the results depend on the processing

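The number of members past the study threshold was the same under quantile normalization, 75th percentile scaling, a pseudocount of 10, no filter and the replicate block in all 14 comparisons. With all 7 groups in one fit, PAM day 2 against PAM day 1 had 1 in place of 0, where 4.55% of all genes passed. With no minimum fold change and an adjusted p under 0.05 the number was 4 over the 9 libraries, 3 in direct 24 h, 2 in indirect day 1, 5 in PAM day 1, 3 in indirect day 2 and 4 in PAM day 2. In the same order, 33.5%, 17.3%, 20.6%, 41.8%, 43.8% and 47.6% of all genes passed. At that wider limit, indirect day 2 had 5 with quantile normalization (44.2% of genes) and 5 with the replicate block (41.4%). The block gave 2 in direct 24 h against direct 30 min, 3 in PAM day 1 against indirect day 1 and 1 in indirect day 2 against indirect day 1, and one fit of all groups gave 2 in PAM day 2 against PAM day 1. The block changed no member's call other than these and those of Bak1 in direct 24 h and of Bak1 and Bid in indirect day 2. In PAM day 2 the median log2 fold change over all genes tested was -0.12, and 0.02 with 75th percentile scaling and 0.000267 with quantile normalization. Under either, 6 members passed the wider limit in place of 4. Of all genes, 47.3% passed it with 75th percentile scaling and 48.5% with quantile normalization. With quantile normalization Bcl2 was at -2.37 and Bcl2l1 at 1.08. Bik and Bmf lie so low that depth limits what can be called.

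Leaving out 1 library gave between 0 and 1 members past the study threshold over the 9 libraries (Bcl2, without line 2 of indirect day 1) and between 0 and 1 in direct 24 h (Bcl2, without line 2). In PAM day 2 it gave 1 to 2. With all libraries 6.34%, 2.17% and 17.3% of all genes passed in these comparisons. At the wider limit leaving out 1 library gave 3 to 5 over the 9 libraries, 1 to 3 in direct 24 h (1 without line 1), 2 to 3 in indirect day 1, 4 to 6 in PAM day 1, 3 to 4 in indirect day 2, 4 to 5 in PAM day 2, and 0 to 1 in indirect day 2 against indirect day 1 (1 without line 4 of indirect day 1). With all libraries, in the same order, 33.5%, 17.3%, 20.6%, 41.8%, 43.8%, 47.6% and 3.37% of all genes passed. The shares without 1 library are not given here, so these counts are not read against them. The log2 fold change of Bcl2l15 over the 9 libraries ran from -0.10 to 0.21 and turned negative in 5 of the 13 fits without 1 library, with no call. The cause was not tested.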
